A study of Mus musculus with 36 samples.

Results

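The genes described here are 10 members of the Notch pathway: the ligands Dll1, Dll3 and Jag1, the receptors Notch2 and Notch3, the receptor-modifying enzyme Lfng, the inhibitor Numb, the nuclear factor Rbpj and the effectors Hey1 and Hes6. They were taken by name from the gene column of the deposited count tables, and all 10 were found among the 40205 genes listed there. The libraries came from neural stem cells (NSCs) of the fetal dorsal telencephalon, grown as neurospheres, and from the extracellular vesicles (EVs) that those cells released into the medium. EVs are membrane-bound particles that carry RNA and protein from the cell that sheds them. Total RNA depleted of ribosomal RNA was sequenced in 18 EV and 18 matched cell libraries.

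The mice were C57BL/6J, of the stock that the study's methods name Ai14. NSCs were taken at gestational day 12.5 and used at passages 7 to 10. Tissue of all fetuses of the same sex within a pregnancy was pooled, so that each of 3 pregnancies (sets 3, 4 and 5) gave 1 female and 1 male culture. These 6 cultures are called 3F, 3M, 4F, 4M, 5F and 5M. Each culture was kept for 5 days in control medium (0 mg/dL ethanol), in 120 mg/dL or in 320 mg/dL ethanol, and on day 5 both the neurospheres and the EVs were collected. A group of the same location, sex and dose therefore holds 3 libraries, and the 3 doses of a culture share their cells of origin. Long culture in mitogenic medium and pooling of fetuses limit how far a library stands for single animals.

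Notch signalling passes between cells that touch. A Delta or Jagged ligand on a cell binds a Notch receptor on its neighbour, the receptor is cut in steps by ADAM proteases and by gamma-secretase, and its freed intracellular part enters the nucleus and binds RBPJ. RBPJ together with Mastermind-like coactivators then switches on Hes and Hey genes, which encode repressors of proneural genes. In the developing cortex this circuit keeps radial glial stem cells undifferentiated while neighbouring cells become neurons. Fringe enzymes such as LFNG add sugars to Notch and shift which ligands it answers to, and NUMB lowers Notch signalling by removing the receptor from the membrane.

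EV libraries held 959217 to 5509952 counts and cell libraries 26566061 to 55282322, so members carry far larger counting error in EVs. The least-counted member values were 1 count for Dll1 and 3 counts for Dll3, each in an EV library of culture 3M. Of 9 NSC markers 7, among them Nes, Vim, Fabp7 and Slc1a3, averaged over 1 CPM (counts scaled to a common library total) in both locations. The list summed to 2540 to 4126 CPM in cells and 855 to 1272 CPM in EVs. Sox2, a defining NSC factor, was listed at 0 in every library, as were the astrocyte marker Aqp4 and the microglial marker P2ry12. Whether a listed 0 is the level of the gene or arose in the counting of reads was not tested. Olig1 and Gfap, markers of the oligodendrocyte and astrocyte lineages, were also present at mean levels of 266 and 87.2 CPM in cells. Y-linked genes summed to at most 1.26 CPM in female and at least 131 CPM in male cell libraries, and to at most 8.87 and at least 28.2 CPM in EVs.

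The levels below are CPM scaled by TMM, a normalisation that aligns the bulk of genes between libraries. To compare genes with each other, CPM was divided by the exon length of the gene in kilobases. On this per-length scale Lfng stood highest in cells (18.5 ± 9.92 CPM per kb, SD, n = 18), followed by Jag1 (11.5 ± 4.61) and Hey1 (11.5 ± 5.61). Hes6 came next at 7.24 ± 0.910 CPM per kb, and Dll3 stood last at 1.48 ± 0.472. Only between Hes6 and the next gene, Notch2 (4.62 ± 1.38 CPM per kb), did the mean ± SD ranges of neighbours in this order not overlap. In EVs the same scale put Notch3 first (12.4 ± 4.99 CPM per kb), then Hes6 (7.65 ± 2.34) and Lfng (7.49 ± 2.23), and Rbpj last (1.40 ± 0.325). All neighbours in the EV order overlapped.

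The first comparison asks which Notch transcripts were over- or under-represented in EVs relative to their cells of origin. Of the 10 members, 2 were higher in EVs (Notch3 and Dll3), 6 were lower (Hey1, Jag1, Lfng, Rbpj, Notch2 and Dll1) and 2 did not pass the test (Hes6 and Numb), at an adjusted p under 0.05 in edgeR's quasi-likelihood test. Calls were common in this comparison, since 80.5% of 15281 tested genes passed, and 8 of 10 is close to that share. The fit had sex and dose as terms and none for culture or pair. It thus counted the 18 libraries of a location singly, although they came from 6 cultures, which bears on every standard error and p-value below. With counts summed over doses and culture as a block, 9 members passed. The median log2 fold change was -0.82 over the members and -0.08 over all tested genes.

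**Figure D1:**
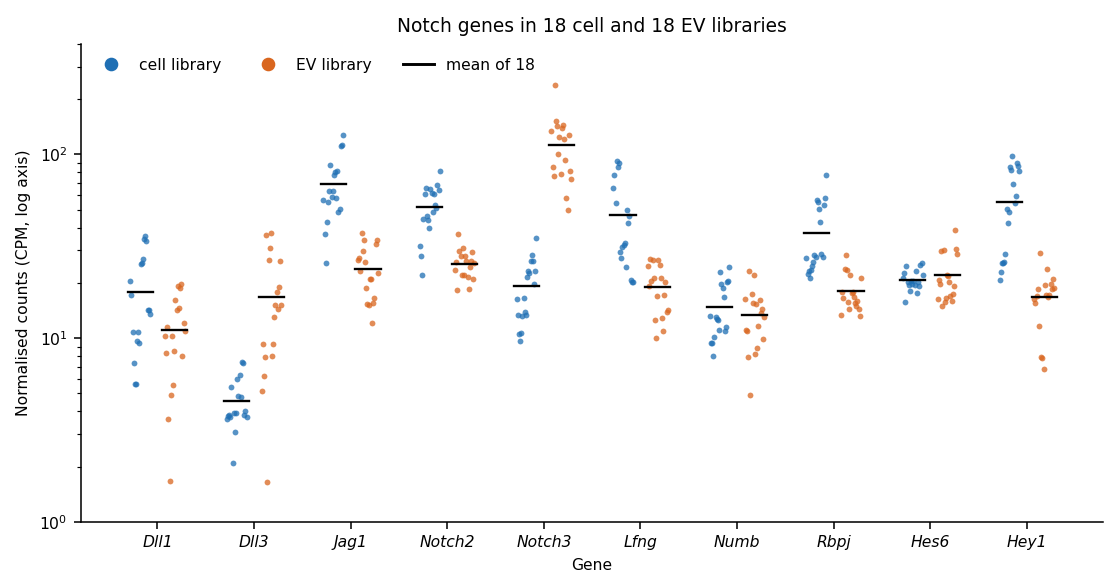
Normalised counts (CPM, log axis) of the 10 Notch genes in each library. Blue points are the 18 cell libraries, orange points the 18 EV libraries and black bars their means. For Notch3 the EV points (49.6 to 238 CPM) all lie above the cell points (9.71 to 34.9 CPM), and for the other 9 genes the 2 clouds overlap.

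Among the ligands, Jag1, the main Jagged ligand of cortical progenitors, had 25.6 to 128 CPM in cells (median 61.1) and 12.1 to 37.5 CPM in EVs (median 22.9). It was lower in the EV library of all 18 pairs of EV and cell libraries from the same culture and dose. The log2 fold change was -1.52 ± 0.16 (SE; adjusted p = 8.31e-11, edgeR), 2.87-fold lower in EVs. Dll1, the Delta ligand of neurogenic progenitors, had 5.59 to 36.1 CPM in cells (median 14.3) and 1.66 to 19.8 CPM in EVs (median 10.6). The ranges overlapped widely, although EVs were higher in only 2 of 18 pairs and in none of the 6 cultures. Its log2 fold change of -0.62 ± 0.26 passed narrowly (adjusted p = 0.0289, edgeR), and it passed in 9 of 13 alternatives, with adjusted p from 4.01e-06 to 0.389. The 4 in which it did not pass were those without pregnancy set 5 (adjusted p = 0.182), without the 6 EV libraries of lowest depth (0.0660), with median-of-ratios size factors (0.0568) and with all libraries thinned to the smallest total (0.389).

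Dll3, an atypical Delta ligand that does not activate Notch on neighbouring cells, went the other way. It had 2.09 to 7.39 CPM in cells (median 3.895) and 1.64 to 37.3 CPM in EVs (median 14.7). EVs were higher in 17 of 18 pairs and in 6 of 6 cultures, and the exception was culture 3M at 320 mg/dL, where 3 EV counts were found. The log2 fold change was 1.77 ± 0.24 (adjusted p = 3.48e-08, edgeR), 3.40-fold higher. EV levels of Dll3 spread widely between cultures, and the culture means of the EV-to-cell ratio ran from 1.77-fold in 4M to 8.74-fold in 4F.

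The receptors moved apart. Notch3 (chromosome 17), which is best known from pericytes and vascular smooth muscle and is also made by neural progenitors, had 9.71 to 34.9 CPM in cells (median 18.1) and 49.6 to 238 CPM in EVs (median 110.5). No EV library overlapped a cell library, and EVs were higher in 18 of 18 pairs. The share of all tested genes without such overlap was not computed, and 80.5% of them passed in this comparison. The log2 fold change was 2.50 ± 0.18 (adjusted p = 5.54e-15, edgeR), 5.65-fold higher. Notch2, a receptor widely expressed in radial glia, had 22.1 to 81.1 CPM in cells (median 52.3) and 18.4 to 36.9 CPM in EVs (median 25.7). It was lower in EVs in 18 of 18 pairs, with a log2 fold change of -1.02 ± 0.11 (adjusted p = 4.00e-10, edgeR), 2.03-fold lower. Notch1, the principal Notch receptor of the cortex and not a member, was 1.36-fold lower in EVs (log2 fold change -0.44 ± 0.11, adjusted p = 6.75e-04, edgeR).

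For Notch3 the size of the EV excess differed between cultures. The culture means in cells were lowest in 3M (11.2 CPM) and highest in 5F (27.0 CPM), whereas in EVs they were highest in 3M (178 CPM) and lowest in 5F (66.8 CPM). The EV-to-cell ratio was thus 15.9-fold in 3M, 7.36-fold in 3F, 6.92-fold in 4F, 6.02-fold in 4M, 3.61-fold in 5M and 2.47-fold in 5F. As a description over the 6 cultures, EV and cell means of Notch3 had a Spearman correlation of -0.77. The same measure was also negative for Rbpj (-0.37) and for Dll3, Jag1 and Numb (-0.14 each), and it was positive for Hes6 (1.00), Dll1 (0.94), Notch2 (0.77), Hey1 (0.54) and Lfng (0.37). EV depth also differs between cultures, and its part in these correlations was not tested.

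Because Notch3 is a gene of mural cells, the markers of other cell types are set beside it. The 6 mural and mesenchymal markers summed to 1.06 to 5.00 CPM in cells and to 2.82 to 25.5 CPM in EVs. The means of Pdgfrb, the defining pericyte receptor, were 0.111 CPM in cells and 0.912 CPM in EVs, from 0 to 5 counts per EV library. Acta2, a smooth muscle marker, alone of the 6 had a lower mean in EVs (0.948 CPM) than in cells (1.21 CPM). The 5 endothelial markers summed to 1.26 to 4.25 CPM in cells and 3.08 to 49.2 CPM in EVs, with Cldn5 at 0 in every EV library. The 5 microglial markers reached at most 0.607 CPM in cells and 11.8 CPM in EVs, with P2ry12 at 0 throughout. All 3 lists had a higher median in EVs than in cells. The medians were 5.78 against 2.39 CPM for mural, 6.13 against 2.62 for endothelial and 2.20 against 0.461 for microglial markers. These genes have low counts. Without a filter on low counts, the median log2 fold change over all genes was 0.46 and 57.4% of called genes were higher in EVs. The part of these markers in the Notch3 result was not tested.

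Lfng, the Fringe glycosyltransferase of progenitors, had 20.2 to 91.6 CPM in cells (median 37.7) and 9.97 to 26.9 CPM in EVs (median 19.7). EVs were lower in 18 of 18 pairs, with a log2 fold change of -1.31 ± 0.22 (adjusted p = 1.16e-06, edgeR), 2.48-fold lower. The inhibitor Numb had 7.996 to 24.5 CPM in cells (median 12.9) and 4.91 to 23.2 CPM in EVs (median 13.4). EVs were higher in 9 of 18 pairs, and the log2 fold change of -0.19 ± 0.17 did not pass (adjusted p = 0.296, edgeR). Numb did pass in 4 of 13 alternatives, with adjusted p from 1.62e-06 to 0.803 over the 13. It passed with library totals (-1.01) and without a filter on low counts (-0.85). It also passed without the 6 EV libraries of lowest depth (-0.50, adjusted p = 0.0100) and with counts summed over doses and culture as a block (-0.55, adjusted p = 0.0329).

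In the nucleus, Rbpj, which encodes the DNA-binding partner of all Notch receptors, had 21.3 to 77.8 CPM in cells (median 28.1) and 13.2 to 28.2 CPM in EVs (median 16.6). EVs were higher in 2 of 18 pairs, and the log2 fold change was -1.05 ± 0.15 (adjusted p = 5.28e-08, edgeR), 2.07-fold lower. Hey1, a Notch target repressor, had 20.7 to 98.0 CPM in cells (median 52.5) and 6.79 to 28.9 CPM in EVs (median 17.2). It had the lowest log2 fold change of the members and was higher in EVs in only 1 of 18 pairs (-1.67 ± 0.20, adjusted p = 1.03e-09, edgeR), 3.19-fold lower. Hes6, a Hes relative that opposes Hes1 and promotes neuronal differentiation, had 15.7 to 25.6 CPM in cells (median 20.4) and 14.9 to 38.8 CPM in EVs (median 20.01). The log2 fold change was 0.08 ± 0.10 (adjusted p = 0.468, edgeR) with this scaling, but -0.73 (adjusted p = 3.54e-06) where library totals alone set the scale and 0.58, also past the threshold, with all libraries thinned to the smallest total.

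Scaling matters for all these values, since library totals alone moved the median gene from -0.08 to -0.88 on the log2 scale and the share of called genes that were higher in EVs from 47.6% to 27.0%. Relative to the median gene, every member moved little with library totals, and the values of 4 are given as examples. Notch3 lay 2.58 above it with TMM and 2.63 above it with library totals, and Dll3 1.85 and 1.76 above it. Hes6 lay 0.16 and 0.15 above it, and Hey1 lay below it, at -1.59 and -1.57. A filter on low counts also bears on the scale, since without it the median gene was at 0.46 and Hes6, past the threshold, at -0.56. Relative to that median Notch3 then lay at 1.40, Dll3 at 0.61, Hes6 at -1.02 and Hey1 at -2.77.

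**Figure D2:**
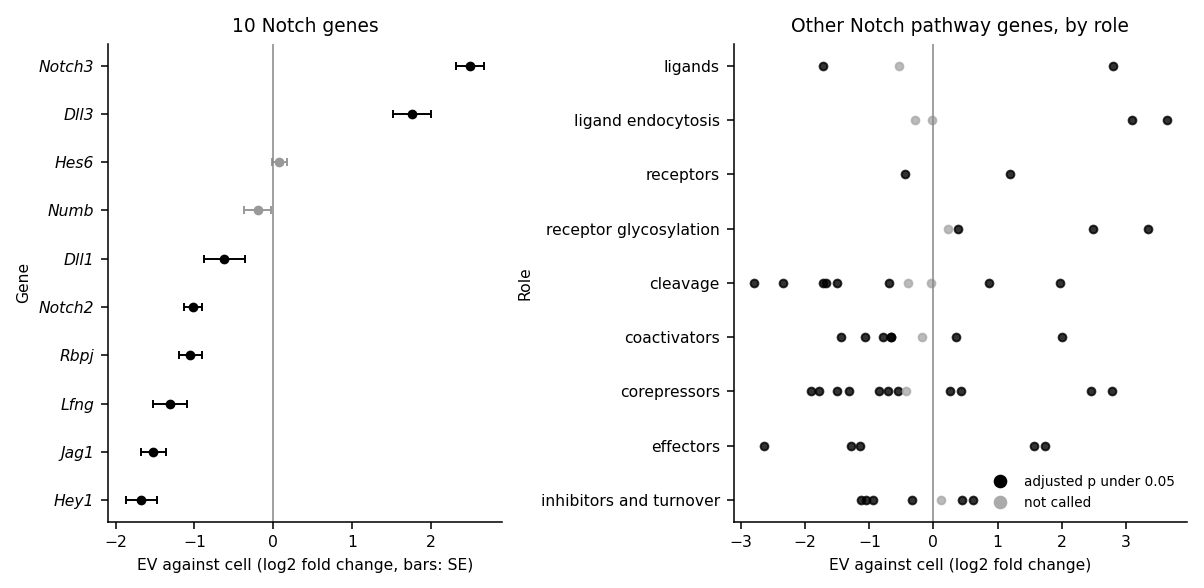
EV against cell as log2 fold change from edgeR. Left, the 10 Notch genes with bars for the standard error. Right, each other Notch pathway gene as a point, by role. Black marks an adjusted p under 0.05 and grey none. Notch3 (2.50) and Dll3 (1.77) lie to the right of 0, and Hey1 (-1.67) and Jag1 (-1.52) farthest to the left among the 10.

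Of 58 other genes of the pathway, 55 were tested, and 19 were called higher and 27 lower in EVs, with a median log2 fold change of -0.42. The 46 calls are close to the share of 80.5% over all 15281 tested genes, of which 5861 were higher and 6441 lower. The counts by role below are descriptions of small groups against that background. The ligand-endocytosis group of 4 genes had 2 called, both higher: Neurl1a, a Neuralized ubiquitin ligase (log2 fold change 3.64 ± 0.22, adjusted p = 3.47e-17, edgeR), and its relative Neurl1b (3.09 ± 0.18, adjusted p = 1.40e-17). Among 4 receptor-glycosylation genes, 3 were higher, led by Mfng (3.35 ± 0.55, adjusted p = 9.31e-07) and Poglut1 (2.48 ± 0.16, adjusted p = 4.58e-16), enzymes that extend and start sugars on Notch. Lfng, a member of the same Fringe family as Mfng, was lower. A single EV library had 207 CPM of Mfng, while its median was 3.76 CPM in EVs and 0.727 CPM in cells.

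Of 10 genes for receptor cleavage, 6 were called lower in EVs and 2 higher. Ncstn, the scaffold subunit of gamma-secretase, had a log2 fold change of -2.80 ± 0.12 (adjusted p = 1.83e-21, edgeR), and Adam17, a sheddase, -2.34 ± 0.09 (adjusted p = 1.21e-22). Of 8 coactivators, 5 were lower and 2 higher, with Maml3, a Mastermind-like coactivator, at 2.00 ± 0.28 (adjusted p = 5.46e-08) and Snw1 at -1.43 ± 0.08 (adjusted p = 1.92e-17). Of 12 corepressors, 7 were lower and 4 higher, and the largest changes were those of Spen (2.79 ± 0.12, adjusted p = 3.53e-21) and Tle2 (2.46 ± 0.24, adjusted p = 1.45e-11), both higher.

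Effectors split as well, with 2 higher and 3 lower among 5 tested. Hes5, the Notch target most typical of cortical stem cells, averaged 16.0 ± 13.2 CPM in cells and 50.9 ± 12.9 CPM in EVs (SD over 18 libraries), and passed as higher in EVs (1.75 ± 0.27, adjusted p = 3.04e-07, edgeR). Hes1, the other classical target, averaged 16.1 ± 5.22 CPM in cells and 6.97 ± 4.69 CPM in EVs, at -1.28 ± 0.21 (adjusted p = 7.87e-07). Hes7, the segmentation-clock repressor, had the largest change of the group (-2.64 ± 0.30, adjusted p = 5.97e-10). Of 7 other inhibitors and turnover genes, 4 were lower and 2 higher, with the ubiquitin ligase Itch at -1.13 ± 0.08 (adjusted p = 4.32e-15) and Dtx3 at -1.05 ± 0.12 (adjusted p = 2.46e-10). The 2 other receptors split, with Notch4 higher (1.19 ± 0.33, adjusted p = 0.00137). Of 5 other ligands 3 were tested, with Dlk1 higher (2.80 ± 0.26, adjusted p = 2.91e-12) and Dner lower (-1.72 ± 0.15, adjusted p = 3.53e-13).

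The longest annotated transcripts of the members ran from 2.35 kb (Lfng) to 10.6 kb (Notch2). Their GC content was 61% in Dll3, 59.9% in Hes6, 59.7% in Notch3 and 58.7% in Lfng, each above that of at least 94.4% of tested genes, and these 4 include both genes that were higher, 1 that did not pass and 1 that was lower in EVs. Across 14306 tested genes with a transcript, the log2 fold change had a Spearman correlation of 0.23 with GC content and -0.01 with length, as a description across genes that are not independent replicates.

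In cells the members differed far more between cultures than between doses. Culture accounted for 98.1% of the spread of Hey1 over the 18 cell libraries, 97.0% of that of Lfng, 95.5% of that of Dll1 and 91.6% of that of Rbpj, and the lowest share was 43.7% for Hes6. Dose accounted for at most 7.55% in any member. Pregnancy alone took 81.6% of the spread of Hey1, 73.1% of that of Lfng and 72.0% of that of Notch3.

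**Figure D3:**
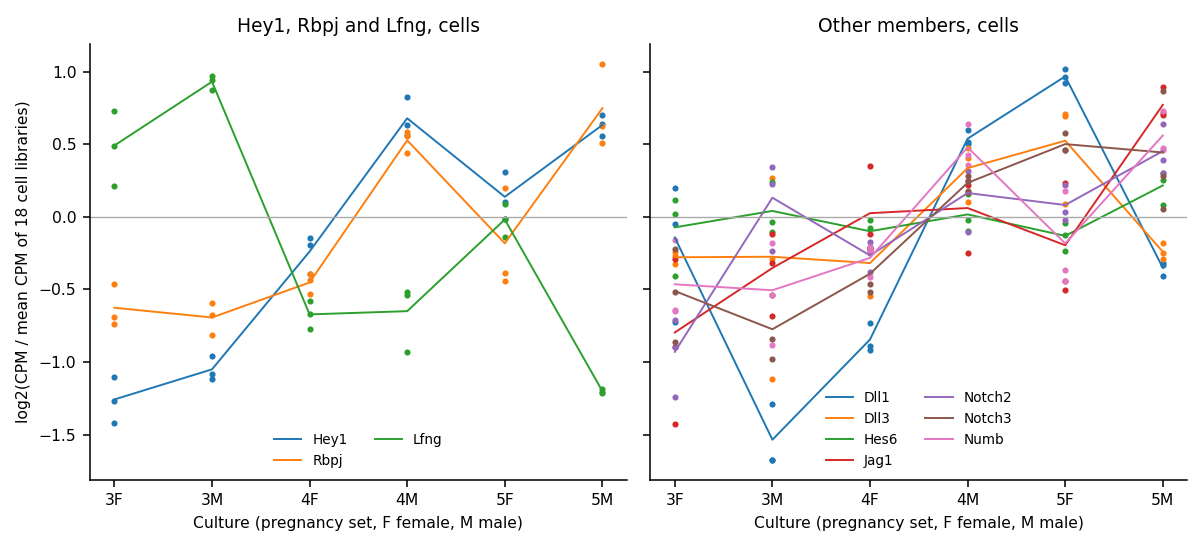
Level of each member in cells, as log2 of CPM over the mean CPM of the 18 cell libraries, by culture. Points are the 3 dose libraries of a culture and lines join culture means as a guide to the eye. Hey1 is low in the set 3 cultures, where Lfng is high.

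Hey1 and Lfng differed in opposite directions between set 3 and the other sets. The culture means of Hey1 in cells were 23.2 CPM in 3F, 26.8 in 3M, 46.9 in 4F, 60.9 in 5F, 85.8 in 5M and 88.7 in 4M. Lfng averaged 89.2 CPM in 3M, 65.8 in 3F, 46.2 in 5F, 29.9 in 4M, 29.4 in 4F and 20.4 in 5M. The libraries of set 3 were thus the lowest in Hey1 and the highest in Lfng, with no overlap with sets 4 and 5 in either gene. The share of all genes that set 3 apart in this way was not computed. Rbpj ran with Hey1, from 23.2 CPM in 3M to 62.9 CPM in 5M. Over the 18 cell libraries Spearman's rho was 0.86 between Hey1 and Rbpj, -0.76 between Hey1 and Lfng, and -0.81 between Rbpj and Lfng, the lowest of all pairs of members. These correlations are descriptions, because the 18 points share 6 cultures.

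Rbpj and Lfng are also the only members with a core RBPJ site in the promoter sequences used here, and for that reason both are shown. The window runs from 250 bases before to 50 bases after the transcription start (RefSeq, table built on GRCm38.p6; coordinates from an exact match to GRCm39). Capitals mark the core TGGGAA, searched on both strands, so that TTCCCA is the same core on the other strand.

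Lfng, chr5:140592846-140593145, plus strand: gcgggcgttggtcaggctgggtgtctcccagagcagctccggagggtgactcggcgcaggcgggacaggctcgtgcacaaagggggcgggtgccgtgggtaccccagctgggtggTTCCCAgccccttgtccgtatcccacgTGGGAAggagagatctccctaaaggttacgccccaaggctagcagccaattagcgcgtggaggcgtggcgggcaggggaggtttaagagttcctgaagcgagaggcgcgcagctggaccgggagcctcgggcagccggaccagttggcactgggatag

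Rbpj, chr5:53747438-53747737, plus strand, the first of 2 windows: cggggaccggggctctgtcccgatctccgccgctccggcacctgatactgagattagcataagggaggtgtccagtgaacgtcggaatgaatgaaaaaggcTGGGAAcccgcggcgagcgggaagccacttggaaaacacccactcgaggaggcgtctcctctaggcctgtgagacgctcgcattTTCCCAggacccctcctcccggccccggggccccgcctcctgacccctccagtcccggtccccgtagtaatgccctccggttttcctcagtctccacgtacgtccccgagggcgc

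Each of these windows holds the core once per strand, in Lfng starting 108 and 135 bases and in Rbpj 149 and 65 bases before the start site. The core is short and occurs by letters alone in 25.6% of the 32851 windows of the table. It was found in 2 of the 9 members that had a window, and Hey1 was not matched in the table. A match is a description of the sequence and not evidence of a site in use.

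The other members had orders of their own in cells. Dll1 was highest in 5F (34.9 CPM) and lowest in 3M (6.16 CPM), a 5.66-fold range of culture means that was kept in EVs, where the range was 5.21-fold between the same cultures. Jag1 ran from 39.6 CPM in 3F to 117 CPM in 5M, a 2.96-fold range, and Notch2 from 27.3 CPM in 3F to 71.2 CPM in 5M, a 2.61-fold range. Numb ranged 2.09-fold and Dll3 1.79-fold, and Hes6 was the most even at 1.27-fold. The sum of astrocyte markers also differed between cultures, from 27.5 CPM in 3F to 210 CPM in 3M, and that of intermediate progenitor markers from 30.7 CPM in 3M to 156 CPM in 5F. Their part in the differences between cultures was not tested, and in such bulk libraries a smaller share of a cell type and less RNA per cell cannot be told apart.

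By Spearman's rho over the 18 cell libraries, the genes most like Hey1 were Zfp655 (0.98), Rnd3 (0.97) and Coq10b (0.96), and those most like Lfng were Terf2 (0.98), Dhx30 (0.95) and Cep97 (0.94). For Rbpj they were Zc3h3 (0.97), Prag1 (0.97) and Reck (0.97), and for Numb Tmem131 (0.98), Ep400 (0.97) and Atf7 (0.97). Dll1 was closest to Arhgap12, Cfap54 (both 0.96) and Acsl1 (0.95), and Notch3 to Phf8 (0.97), Jdp2 and Prox1os (both 0.96). Jag1 was closest to Nckap1 (0.96), Dtnb (0.95) and Heg1 (0.94), and Notch2 to Gch1 (0.95), Tab2 and Nhs (both 0.94). Dll3 had Gm13481 (0.91), Slc9a9 (0.86) and Gm42221 (0.83), and Hes6 had the lowest values with Ivns1abp (0.85), Cdc42ep4 (0.78) and Marcksl1 (0.77). These, too, rest on 6 cultures and are given as descriptions.

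The second comparison asks whether ethanol changed the members, in EVs, in cells or in their ratio, within each culture. No member passed the test in any of the 6 contrasts of dose against control in edgeR. Unadjusted, 1 member (Notch3) was under 0.05 in EVs at each dose, 2 (Notch3 and Dll1) were in the EV-to-cell ratio at 320 mg/dL and 0 in the other contrasts, and DESeq2 called 1 (Notch3) in EVs and in the ratio at 320 mg/dL. In EVs, 0.00842% of 11880 tested genes passed at 120 mg/dL and 0.0842% at 320 mg/dL. In cells 0% of 17792 genes passed at 120 mg/dL and 0.0393% at 320 mg/dL, and of 18728 genes 0.0107% and 0% passed for the EV-to-cell ratio. Of all tested genes, 744 and 1410 had an unadjusted p under 0.05 in EVs at 120 and 320 mg/dL, 444 and 1525 in cells, and 781 and 1346 in the ratio. DESeq2 called 4 genes in cells at 120 mg/dL and 248 in the ratio at 320 mg/dL. The median log2 change of the members was -0.00325 and -0.04 in EVs and -0.06 and -0.09 in cells, at 120 and 320 mg/dL respectively, against medians between -0.01 and 0.01 over all tested genes.

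Notch3 in EVs had the smallest p of the members. In control EVs it had 134.5 CPM in 3F, 238 in 3M, 100.1 in 4F, 139.7 in 4M, 93.0 in 5F and 127 in 5M. At 320 mg/dL the values in the same order were 76.4, 143, 78.1, 121, 49.6 and 73.3 CPM, so that every culture was below its own control, while the 2 ranges overlapped across cultures. The log2 fold change was -0.64 ± 0.14 (unadjusted p = 2.82e-04, adjusted p = 0.118, edgeR), and it lay below that of all but 1.54% of tested genes. An exact sign-change test over the 6 cultures gave p = 0.03125, the smallest it can give. That test was run for every member in EVs and in cells at both doses, and its p is not adjusted. The share of all genes that reach this p was not computed.

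Whether Notch3 passed depended on the test and on the pregnancies. DESeq2 gave a log2 fold change of -0.63 with an adjusted p of 0.00153, and edgeR without set 4 gave -0.82 with an adjusted p of 0.0174. Without set 3 the adjusted p was 0.557 and without set 5 it was 0.941. Over 12 alternatives the log2 fold change stayed between -0.89 and -0.48, the adjusted p ran from 0.00153 to 1.0, and 2 passed. With library totals the median gene itself moved to -0.24, and Notch3 lay at -0.65 from it, as against -0.66 with TMM. The median sum of mural markers in EVs was 7.09 CPM in controls, 7.43 CPM at 120 mg/dL and 4.89 CPM at 320 mg/dL, and its part in the Notch3 values was not tested.

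**Figure D4:**
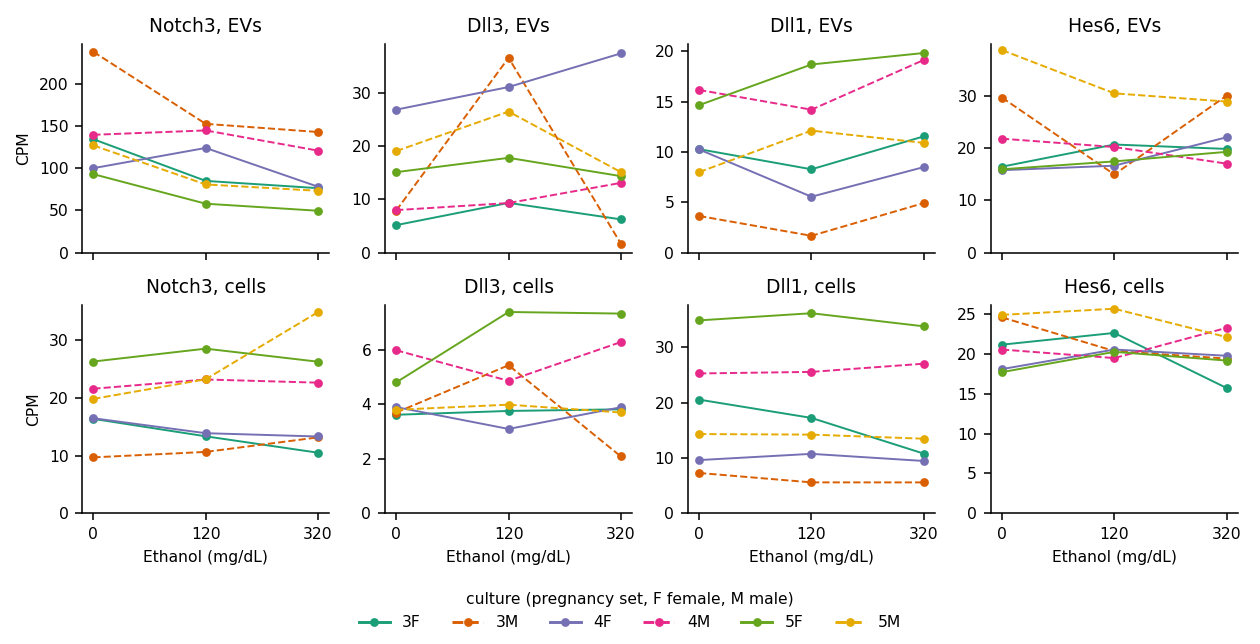
CPM of Notch3, Dll3, Dll1 and Hes6 against ethanol dose (mg/dL, categories evenly spaced) in EVs (top) and cells (bottom). Each line is a culture, solid for female and dashed for male. Notch3 in EVs lies below its control in 6 of 6 cultures at 320 mg/dL and in 4 of 6 at 120 mg/dL, whereas in cells 3 cultures lie above and 3 below at 320 mg/dL.

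At 120 mg/dL Notch3 in EVs had 85.0 CPM in 3F, 153 in 3M, 124 in 4F, 145 in 4M, 57.9 in 5F and 80.8 in 5M, lower than control in 4 of 6 cultures and slightly higher in both cultures of set 4. The log2 fold change was -0.40 ± 0.14 (unadjusted p = 0.0113, adjusted p = 0.769, edgeR). In cells Notch3 was at -0.01 ± 0.14 at 120 mg/dL and 0.08 ± 0.15 at 320 mg/dL (adjusted p = 1.0 and 0.912, edgeR). The EV-to-cell ratio of Notch3, tested as an interaction, was at -0.43 ± 0.22 at 120 mg/dL (adjusted p = 1.0) and -0.76 ± 0.22 at 320 mg/dL (unadjusted p = 0.00157, adjusted p = 0.415, edgeR). DESeq2 called the latter (-0.74, adjusted p = 0.0151), within a range of 0.0151 to 1.0 over 12 alternatives.

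Dll3 in EVs had 5.14 CPM in 3F, 7.87 in 3M, 26.8 in 4F, 7.95 in 4M, 15.1 in 5F and 19.0 in 5M in controls. At 120 mg/dL it had 9.30, 36.5, 31.0, 9.28, 17.8 and 26.4 CPM in the same order, above control in 6 of 6 cultures by 0.20 to 2.08 on the log2 scale. The mean difference was 0.65 ± 0.73 (SD, n = 6), with exact p = 0.03125 in the sign-change test, the smallest possible. This p is not adjusted for the many such tests run over members, locations and doses. The edgeR fit gave 0.58 ± 0.33 (adjusted p = 0.824). The largest step was that of 3M, from 26 to 22 counts in libraries of 3354842 and 959217 counts. At 320 mg/dL Dll3 was above control in 3 of 6 cultures (0.04 ± 0.35, adjusted p = 1.0, edgeR).

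Dll1 had an EV-to-cell ratio of 0.48 ± 0.21 at 320 mg/dL relative to control (unadjusted p = 0.0279, adjusted p = 0.628, edgeR). In EVs at that dose it was above control in 5 of 6 cultures (0.29 ± 0.17, adjusted p = 0.550), and in cells below control in 5 of 6 (-0.22 ± 0.11, adjusted p = 0.628). The largest step in cells was in 3F, from 20.5 to 10.8 CPM. Jag1 in cells was at -0.28 ± 0.18 and -0.33 ± 0.18 at 120 and 320 mg/dL (adjusted p = 1.0 and 0.649, edgeR), and at 120 mg/dL its 3 female cultures all lay below control and its 3 male cultures above.

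Hey1, Rbpj, Lfng, Notch2, Hes6 and Numb had fitted changes between -0.23 and 0.24 in EVs and between -0.19 and 0.05 in cells at both doses, all with adjusted p of at least 0.554 (edgeR). Hey1 in EVs at 320 mg/dL was above control in 5 of 6 cultures (0.24 ± 0.14) and Lfng in EVs at 120 mg/dL below control in 5 of 6 (-0.23 ± 0.16). For Hes6 the standard errors were 0.15 in EVs and 0.09 in cells, and for Numb 0.26 and 0.14. The part of EV depth in the larger errors was not tested.

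Of the other 58 pathway genes none passed at either dose in EVs (45 tested) or cells (56 tested) in edgeR, and unadjusted p-values under 0.05 numbered 4 and 11 in EVs and 0 and 4 in cells, at 120 and 320 mg/dL. Over all tested genes such p-values numbered 744 and 1410 of 11880 in EVs and 444 and 1525 of 17792 in cells. Hes1 in EVs was at 1.05 ± 0.32 at 120 mg/dL (unadjusted p = 0.00473, adjusted p = 0.748) and 0.95 ± 0.32 at 320 mg/dL (adjusted p = 0.240, edgeR). It was above control in 6 of 6 cultures at the lower dose, from 3.15 to 5.14 CPM in controls to 3.32 to 21.6 CPM, with 3 to 30 counts per library. In cells Hes1 at 120 mg/dL lay below control in 6 of 6 cultures (-0.15 ± 0.08, adjusted p = 1.0). Hes5 in cells at 320 mg/dL was at 0.34 ± 0.14 (unadjusted p = 0.0319, adjusted p = 0.524), and Notch1 in EVs at -0.14 ± 0.12 and -0.02 ± 0.12 at 120 and 320 mg/dL (adjusted p = 0.895 and 0.997).

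The third comparison is between female and male cultures, 3 against 3 with pregnancy as a term, on counts summed over doses. No member passed in cells, where 0.0334% of 20972 genes did, or in EVs, where 0% of 14847 genes did although 3076 were under an unadjusted p of 0.05 and DESeq2 called 13. Unadjusted, 3 members in cells and 2 in EVs were under 0.05, and DESeq2 called 0 of the members. In cells 1632 of all tested genes were under an unadjusted p of 0.05, and DESeq2 called 315. Hey1 in cells was lower in the female culture of each pregnancy (-0.64 ± 0.18, unadjusted p = 0.0143, adjusted p = 0.555, edgeR). Notch2 in cells was also lower in each female culture (-0.69 ± 0.21, adjusted p = 0.583), and Rbpj was at -0.67 ± 0.25 (adjusted p = 0.633). In EVs Notch3 was at -0.72 ± 0.25 (unadjusted p = 0.0298, adjusted p = 0.213) and Hes6 at -0.56 ± 0.22 (adjusted p = 0.230). When the 9 libraries of each sex were counted singly, 5 members in cells and 2 in EVs passed. So did 2953 of 17052 tested genes in cells and 2993 of 11037 in EVs. The 3 doses of a culture are, however, not separate cultures.

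On GRCm39 the members lie at chr17:15587276-15597134 (Dll1), chr7:27992978-28001673 (Dll3), chr2:136923373-136958693 (Jag1), chr3:97920800-98057677 (Notch2), chr17:32339794-32385893 (Notch3), chr5:140593075-140601300 (Lfng), chr12:83840808-83968997 (Numb), chr5:53623494-53814704 (Rbpj), chr3:8726956-8732385 (Hey1) and chr1:91339204-91342103 (Hes6). In the annotation the exons of Dll1 overlap those of Fam120b on the opposite strand, which had up to 1216 counts in a library, and those of Numb overlap Papln, with up to 119 counts. The kit marks strand, but whether strand was used in counting is not given in the sources used here. The values of Dll1 and Numb are uncertain to that extent.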

How the data were processed

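RNA of 18 EV and 18 cell libraries was sequenced. The authors deposited raw read counts per gene for each library, from reads that their notes name Trimmomatic, STAR and HTSeq for, with the build mm39 and DESeq2 2.11.40.6. Groups came from the sample labels, and 0 columns belonged to other series. The members and the gene lists were chosen with earlier results of these data known. Other pathway genes named are the 2 with the largest absolute log2 fold change per role among those past the threshold, and always Notch1, Hes1 and Hes5. For each member the 3 genes with the highest Spearman correlation over the 18 cell libraries are given.

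Counts were tested in R 4.3.3 with edgeR 4.0.16 (filterByExpr with a minimum count of 10, TMM, quasi-likelihood test, Benjamini-Hochberg adjustment over all tested genes, called at 0.05). Culture was a term of the dose fits, whereas the fit of EVs against cells had sex and dose as terms and no culture or pair. Separate cultures are the replicates, and 3 come from each sex. The fits were tested on simulated data. DESeq2 1.42.0, other scalings, no filter, thinning, blocks and leaving out each pregnancy set were alternatives, and leaving out the 6 EV libraries of lowest depth was chosen after seeing the data. Per-culture differences used log2(CPM + 1) and an exact sign-change test, two-sided. The doses of a culture are paired by their shared origin: deviations of dose and control libraries of the same culture correlated with a median of 0.679 in cells (12 of 12 over 0.1) and 0.196 in EVs (11 of 12).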

Additional observations from a re-analysis of the deposited data

Results flagged for a closer look

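In groups of 6 libraries of the same location and dose, 5 of 60 had a library far from the others, where chance alone gives about 1 in 20. Notch3 in control EVs had 238 CPM in 3M, with the nearest library at 139.7 CPM. Rbpj in EVs at 120 mg/dL had 28.2 CPM in 3M (nearest 17.8 CPM), in the EV library of the lowest depth. Hes6 in EVs at 120 mg/dL had 30.5 CPM in 5M (nearest 20.7 CPM), and Hey1 in control EVs had 7.88 CPM in 4F (nearest 16.4 CPM). Jag1 in cells at 320 mg/dL had 127.5 CPM in 5M (nearest 63.5 CPM).

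The 60 contrasts screened were, for each member and dose, female against male cultures in EVs, the same in cells, and EVs against cells. In 4 of them every culture of a group moved one way from control and every culture of the other group the other way. All 4 were between female and male cultures. The difference between the sexes was not tested, and the share over all genes was not computed. The mean log2 difference for Jag1 in cells at 120 mg/dL was -0.63 in female and 0.14 in male cultures, with moves of only 0.04 in 4M and 0.02 in 5M. For Notch3 in cells at 320 mg/dL it was -0.29 and 0.42. For Notch2 in EVs at 120 mg/dL it was 0.32 and -0.29, and for Hes6 there 0.17 and -0.46.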

How the results depend on the processing

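Between EVs and cells, 7 to 10 members passed over 13 alternatives. Hes6 turned direction with library totals (-0.73) and without the filter on low counts (-0.56). At 320 mg/dL in EVs 1 member, Notch3, passed with DESeq2, and 0 to 1 passed when a pregnancy set was left out. In the EV-to-cell ratio at that dose 1 passed with DESeq2. No member passed at 120 mg/dL or in cells under any alternative run. Calls over all genes moved more: 6380 to 23256 between EVs and cells against 12302 as reported, 0 to 157 against 1 in EVs at 120 mg/dL and 0 to 267 against 10 at 320 mg/dL. In cells they ran from 0 to 4 against 0 and from 0 to 94 against 7, and in the ratio from 0 to 16 against 2 and from 0 to 248 against 0. Between the sexes they ran from 6 to 2953 against 7 in cells and 0 to 2993 against 0 in EVs. The causes were not tested. Of genes called between EVs and cells, 47.6% were higher as reported, 57.4% without the filter and 72.9% with DESeq2.

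With each EV and cell pair as a replicate block 8 members passed, with culture sums blocked by culture 9, and with controls alone 8. Without the culture block, 0 members passed at 320 mg/dL in EVs (Notch3 -0.62, adjusted p = 1.0, edgeR). With 9 libraries per sex and a replicate block, 5 members passed in cells and 2 in EVs, beside 2953 of 17052 and 2993 of 11037 tested genes. EV depth, from 959217 counts, limits the counting precision of EV values.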
